A study of Homo sapiens with 14 samples.

Results

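The genes described here encode the translation initiation and elongation factors of the cytoplasm, which bring a ribosome to the start codon of an mRNA and move it along the coding sequence. Members were all genes with a symbol that starts with EIF1 to EIF6, EIF2B and EIF4EBP included, or with EEF1 or EEF2, without the eIF2 kinases (EIF2AK), EEF1E1 and pseudogenes. Of 19775 genes with a probe set of their own, 56 fit this rule, among 71 RefSeq genes that fit it. Levels are given for 55 of them, of which 53 code for protein and 2 are noncoding neighbours, EIF1B-AS1 and EIF3J-DT. The Y-linked EIF1AY was tested and did not pass, and no level is given for it. Probe sets shared by several genes were the only ones for EIF4A1, EEF1B2, EEF1G, EIF3CL and EIF4EBP3, so these genes were not analysed here. A signal over 50 in at least 7 of 14 arrays was reached by 51 of the 55 members, the exceptions being EIF4A2, EIF3C, EIF1B-AS1 and EIF4E3.

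The mRNAs were read on HG-U133 Plus 2.0 arrays in 7 established human T-ALL (T-cell acute lymphoblastic leukemia) lines, Jurkat, Molt-4, HPB-ALL, ALL-SIL, TALL-1, P12-ICHIKAWA and CCRF-CEM. Each line was cultured for 6 h with vehicle or with the PI3K inhibitor AS605240 at its own IC50, so the concentration was not the same in all lines. There was 1 array per line and treatment, and the spread given here is therefore that between lines, with array noise included. The SE of a change is that of limma, which draws the spread of each gene toward that of all genes. Levels and changes are on the log2(signal + 16) scale, on which the offset shrinks the change of dim genes.

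The lines P12-ICHIKAWA and TALL-1 gave nearly alike arrays. Over all genes their vehicle arrays had a Pearson correlation of 0.994, where the 20 other pairs had 0.908 to 0.953. The levels of the translation factors in these lines differed by a median of 0.077, and by at most 0.64 (EIF3C). Results are therefore also given with both lines averaged and counted as 1. All 9 T-cell markers measured passed the same signal limit, against 1 of 5 B-cell markers (CD79A), 1 of 6 myeloid markers (LYZ) and 2 of 6 epithelial and fibroblast markers (KRT8 and COL1A1). Added poly(A) spike-in RNAs read higher in the treated array in 7 of 7 lines, by 0.0046 in CCRF-CEM to 0.55 in Molt-4. The hybridization controls read lower in the treated array of P12-ICHIKAWA, by -0.46, and higher in those of the other 6 lines, by 0.035 to 0.18. The part of both in the changes below was not tested. In RNA from whole cultures, fewer cells of a type and less RNA per cell cannot be told apart.

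Translation starts when eIF2, bound to GTP and the initiator tRNA, joins the small ribosomal subunit together with eIF1, eIF1A, eIF3 and eIF5. The eIF4 factors bind the cap of the mRNA, and the EIF4EBP proteins block that step by holding eIF4E until the mTORC1 kinase, which acts downstream of PI3K, phosphorylates them. Many mRNAs of the elongation factors and of some initiation factors start with a run of pyrimidines, the feature through which mTORC1 controls their translation.

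Which of these mRNAs changed when PI3K was inhibited was asked with limma, with the line as a block and p-values adjusted over all genes. With AS605240, 14 of the 55 members fell (25.5%, against 7.03% of all genes) and 3 rose (5.45%, against 11.8% of all genes). Among genes of adequate signal, by the same limit of 50 in 7 arrays, 13 of 51 members fell, against 13.6% of such genes, and 3 rose, against 20.3%. Of these 3, EIF3J-DT met the limit only through its treated arrays, since most of its vehicle signals were under 50. The median change of the members was -0.086, against 0.013 over all genes, and -0.093 against 0.031 among the brighter ones. The decreases were small. EIF2S1 and EIF2B3 alone fell by more than 1.5-fold (0.506% of all genes did), and no member rose by more than 1.5-fold (1.07% of all genes did). With P12-ICHIKAWA and TALL-1 counted as 1 line, 12 members were called lower and 3 higher, and EIF4EBP1 (adjusted p = 0.065) and EIF6 (adjusted p = 0.051) no longer passed.

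**Figure D1:**
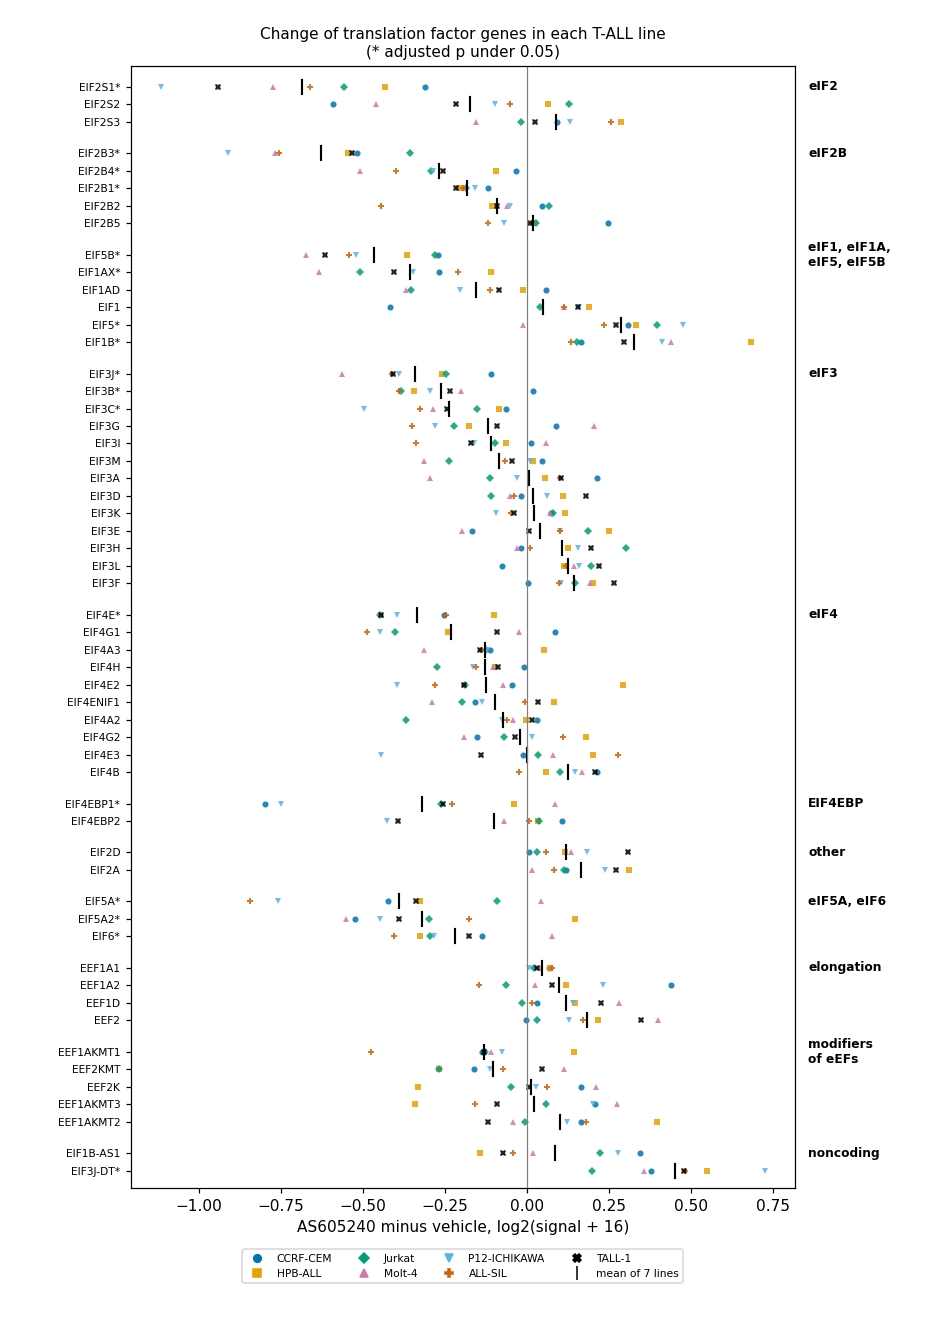
Log2 change with AS605240 (horizontal axis, AS605240 minus vehicle on the log2(signal + 16) scale) of each of the 55 genes in each of the 7 lines (coloured symbols), grouped by complex, with the mean of the 7 lines as a black bar and a star beside genes with an adjusted p under 0.05. The points of EIF2S1, EIF2B3 and EIF5B all lie left of 0, those of EIF1B and EIF3J-DT all lie right of 0, and no eEF gene has a star.

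The eIF2 complex carries the initiator tRNA to the ribosome, and its 3 subunits did not move as a unit. EIF2S1 encodes the alpha subunit, the one that the stress kinases phosphorylate. Its vehicle level ranged from 9.71 in P12-ICHIKAWA to 10.62 in Jurkat with a median of 9.99, and its level with AS605240 ranged from 8.59 to 10.06 with a median of 9.58. The groups overlapped, but within each line the treated array was lower. The change was -0.31 in CCRF-CEM, -0.43 in HPB-ALL, -0.56 in Jurkat, -0.66 in ALL-SIL, -0.77 in Molt-4, -0.94 in TALL-1 and -1.12 in P12-ICHIKAWA, with a mean of -0.69 ± 0.088 (SE, n = 7 lines), a 1.61-fold decrease (limma, adjusted p = 1.54e-04). The nearly alike lines showed the largest decreases, and with them counted as 1 line the change was -0.63 (adjusted p = 4.4e-04). Without P12-ICHIKAWA, the line whose hybridization controls stood apart, it was -0.61 (adjusted p = 3.86e-04). The beta subunit gene EIF2S2 had a change of -0.18 ± 0.084 and the gamma subunit gene EIF2S3 one of 0.087 ± 0.064, and neither passed (adjusted p = 0.183 and 0.426).

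The decrease of EIF2S1 depended on the probe set. The brightest of its 3 probe sets gave the values above, while the next changed by -0.13 ± 0.064 (adjusted p = 0.220 over all single-gene probe sets) and the dimmest by -0.096 ± 0.062 (adjusted p = 0.367), although both had a signal over 50 in all 14 arrays. In each of the 7 lines the brightest probe set fell further than either of the others, with mean differences of -0.56 and -0.59 and an SD of 0.21 in both cases. Which part of the transcript each probe set reads was not analysed here. Over the called members the sign was shared: the 9 with a further probe set of adequate signal had 21 such probe sets, and 21 of 21 changed in the direction of the brightest. The size was not always shared. Further probe sets of EIF5A (-0.16 ± 0.11), EIF5B (-0.26 ± 0.093) and EIF3B (-0.15 ± 0.064) also did not pass (limma, adjusted p = 0.388, 0.0827 and 0.154). Of the 4 EIF1AX probe sets, all 4 fell, by 0.30 to 0.51, and of the 5 EIF5 probe sets the 4 of adequate signal rose, by 0.23 to 0.31, while the dim one was at 0.13 and did not pass.

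Some members that did not pass by their brightest probe set held a dimmer one that did. Over 20 such genes with 36 further probe sets of adequate signal, 4 probe sets rose and 1 fell, where 19.4% and 13.1% of all single-gene probe sets of adequate signal did. The 4 that rose were those of EIF3F (0.70 ± 0.090), EIF1 (0.44 ± 0.080), EIF3H (0.26 ± 0.056) and EEF1A1 (0.25 ± 0.064), each higher in 7 of 7 lines (limma, adjusted p up to 0.0144). That of EIF3F had a signal over 50 in 9 of 14 arrays, more of them treated than vehicle. The EIF1AD probe set fell by 0.42 ± 0.10 in 6 of 7 lines. These 5 were chosen after their values were seen.

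**Figure D2:**
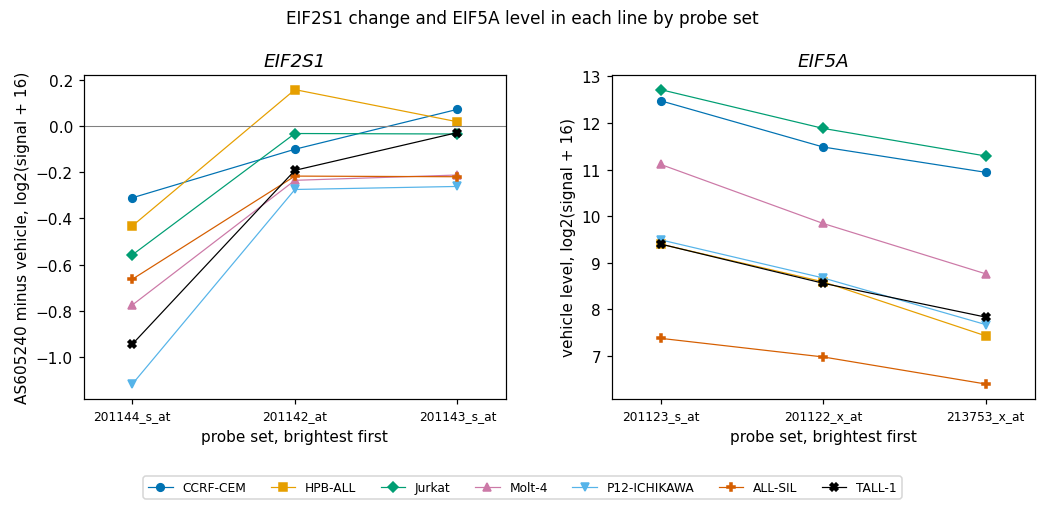
Left, log2 change of EIF2S1 with AS605240 in each of the 7 lines by each of its 3 single-gene probe sets, brightest first. Right, vehicle level of EIF5A on the log2(signal + 16) scale in each line by each of its 3 single-gene probe sets. Every line is lower at the left EIF2S1 probe set than at the others, while the lines hold nearly the same order at all EIF5A probe sets, with Jurkat and CCRF-CEM highest and ALL-SIL lowest.

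The guanine nucleotide exchange factor eIF2B recharges eIF2 with GTP, and 3 of its 5 subunit genes fell, against 7.03% of all genes and 13.6% of those of adequate signal. EIF2B3, the gamma subunit of the catalytic part, had vehicle levels of 7.99 to 9.07 (median 8.31) and AS605240 levels of 7.40 to 8.30 (median 7.77). These ranges overlapped, and each line was lower with AS605240, from -0.36 in Jurkat and -0.52 in CCRF-CEM through -0.53 in TALL-1, -0.55 in HPB-ALL, -0.76 in ALL-SIL and -0.77 in Molt-4 to -0.91 in P12-ICHIKAWA. The mean change of -0.63 ± 0.070 (SE, n = 7 lines, 1.54-fold) had the smallest adjusted p of all members (limma, 5.95e-05). EIF2B4 (delta subunit) fell by 0.27 ± 0.066 (adjusted p = 0.0108) and EIF2B1 (alpha subunit) by 0.18 ± 0.052 (adjusted p = 0.0245), both in 7 of 7 lines. Without P12-ICHIKAWA the change of EIF2B3 was -0.58 (adjusted p = 2.28e-04), short of 1.5-fold, and EIF2B1 did not pass without Jurkat, ALL-SIL or TALL-1 (adjusted p up to 0.0652). The partner of EIF2B3 in the catalytic part, EIF2B5 (epsilon subunit), had a change of 0.018 ± 0.059, and EIF2B2 (beta subunit) one of -0.093 ± 0.067. The median over the 5 subunits was -0.18, and the median within each line lay between -0.40 in ALL-SIL and -0.034 in CCRF-CEM, below 0 in 7 of 7 lines.

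The factors that scan for the start codon and join the large subunit moved in both directions. EIF5B, the GTPase that joins the subunits, had vehicle levels of 8.79 to 9.24 (median 8.96) and AS605240 levels of 8.17 to 8.88 (median 8.55). It fell in 7 of 7 lines, from -0.27 in CCRF-CEM to -0.67 in Molt-4, with a mean of -0.47 ± 0.065 (limma, adjusted p = 2.84e-04). EIF1AX, which encodes eIF1A on the X chromosome, fell by 0.36 ± 0.068 in 7 of 7 lines (adjusted p = 0.00232). EIF5, the GTPase-activating protein of eIF2, and EIF1B, a paralog of the start codon gatekeeper EIF1, rose instead.

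EIF1B levels were 9.40 to 10.55 (median 10.18) with vehicle and 10.08 to 10.99 (median 10.39) with AS605240. HPB-ALL, the line with the lowest EIF1B, rose most, by 0.68, and the other 6 lines rose by 0.13 to 0.44, giving a mean of 0.32 ± 0.072 (limma, adjusted p = 0.00590). By its only other probe set, which was dim, EIF1B was at 0.14 and did not pass (adjusted p = 0.135). EIF5 rose by 0.29 ± 0.064 (limma, adjusted p = 0.00649), by 0.23 to 0.48 in 6 lines, while Molt-4 stayed at -0.014. Molt-4 had the lowest vehicle level of EIF5 by this probe set (9.93), but ALL-SIL was lowest by each other EIF5 probe set. EIF1AD, which resembles EIF1AX, was at -0.16 ± 0.066 and did not pass. EIF1 itself did not pass either (0.050 ± 0.074). It was lower by 0.42 in CCRF-CEM and higher by 0.039 to 0.19 in the other 6 lines. The signed change of EIF1 was below that of EIF1B in 7 of 7 lines, with a mean difference of -0.28 ± 0.21 (SD), which an exact sign-flip permutation test gave a two-sided p = 0.0156, the smallest that 7 lines allow, and 0.109 after adjustment over 7 paralog pairs.

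**Figure D3:**
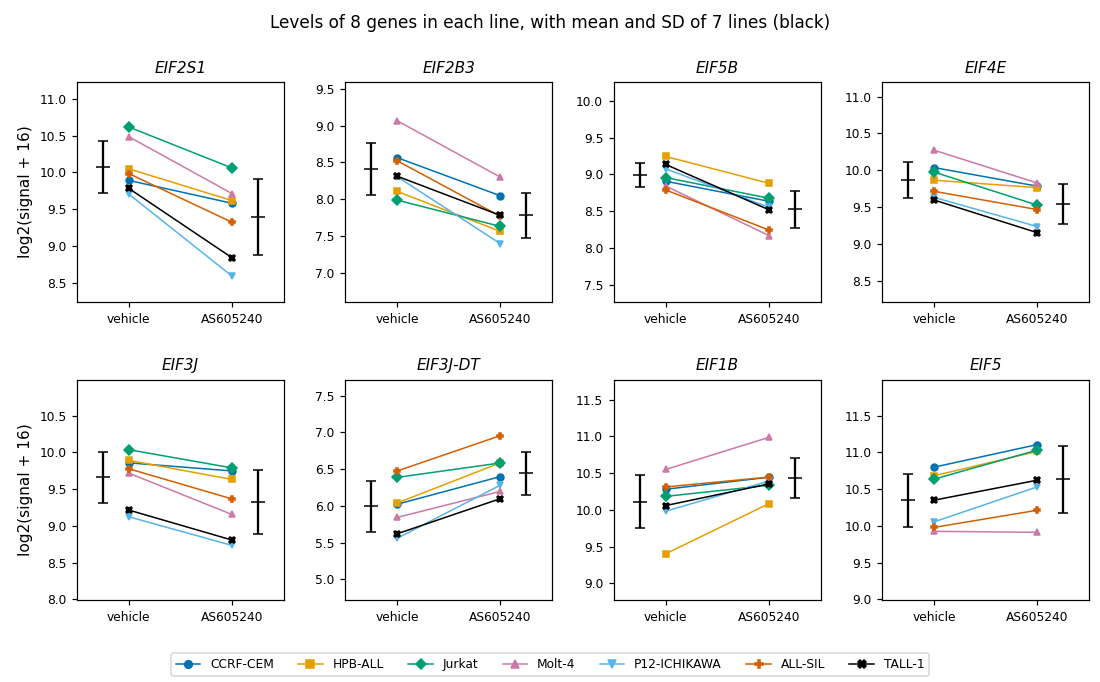
Level on the log2(signal + 16) scale of 8 genes with vehicle and with AS605240 in each of the 7 lines (coloured, joined), with the mean and SD of the 7 lines in black beside each group. All panels span the same number of log2 units, and the 7 lines run down in EIF2S1, EIF2B3, EIF5B, EIF4E and EIF3J and up in EIF3J-DT and EIF1B, while EIF5 runs up in 6 and is flat in Molt-4.

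The scaffold complex eIF3, which holds the small subunit open for mRNA, was mostly level. Of 13 subunit genes 3 fell, none rose, and the median change was 0.0046. Among all genes 7.03% fell and 11.8% rose, and among those of adequate signal 13.6% and 20.3%, so the count that fell is not far from these shares. EIF3J, a loosely bound subunit at the decoding centre, fell in 7 of 7 lines, by 0.11 in CCRF-CEM to 0.56 in Molt-4, with a mean of -0.34 ± 0.063 (limma, adjusted p = 0.00185). Its vehicle levels of 9.13 to 10.04 and AS605240 levels of 8.74 to 9.79 overlapped. EIF3B, a core scaffold subunit, fell by 0.26 ± 0.063 in 6 of 7 lines (adjusted p = 0.00916), the exception being CCRF-CEM at 0.018. EIF3C, another core subunit, fell by 0.24 ± 0.064 (adjusted p = 0.0181), but its own probe set was dim, with a signal over 50 in 2 of 14 arrays, and EIF3CL is a near-identical copy, so this value is uncertain, and it did not pass without P12-ICHIKAWA (adjusted p = 0.0569) or ALL-SIL (adjusted p = 0.0506). At the other end, EIF3F had the highest change of the complex, 0.14 ± 0.056, above 0 in 7 of 7 lines and short of the threshold (adjusted p = 0.0912). The other 9 subunits lay between -0.12 (EIF3G) and 0.12 (EIF3L).

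EIF3J-DT, a noncoding transcript that runs divergently from the EIF3J promoter, rose by the largest amount of any member read by its brightest probe set. Its annotated starts on chromosome 15 lie 224 and 247 bases from that of EIF3J, on the opposite strand. Levels were 5.56 to 6.47 (median 6.02) with vehicle and 6.10 to 6.95 (median 6.40) with AS605240, and each line rose, by 0.20 in Jurkat, 0.35 in Molt-4, 0.38 in CCRF-CEM, 0.48 in ALL-SIL and in TALL-1, 0.55 in HPB-ALL and 0.72 in P12-ICHIKAWA. The mean was 0.45 ± 0.066 (limma, adjusted p = 3.88e-04). Its vehicle signals were low, from 31.1 in P12-ICHIKAWA to 72.9 in ALL-SIL, against 52.5 in TALL-1 to 108.1 in ALL-SIL with AS605240. EIF3J and EIF3J-DT thus moved in opposite directions in all 7 lines. EIF1B-AS1, with its start 9 bases from that of EIF1B, was dim and did not pass (0.086 ± 0.071).

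Of the 10 genes of the cap-binding eIF4 group 1 fell and none rose. Among all genes 7.03% fell and 11.8% rose, and among those of adequate signal 13.6% and 20.3%. EIF4E, which binds the cap itself, had vehicle levels of 9.60 to 10.27 (median 9.86) and AS605240 levels of 9.15 to 9.83 (median 9.53). It fell in 7 of 7 lines, by 0.10 in HPB-ALL, 0.25 in CCRF-CEM and in ALL-SIL, 0.40 in P12-ICHIKAWA and 0.45 in Jurkat, Molt-4 and TALL-1, with a mean of -0.33 ± 0.062 (limma, adjusted p = 0.00178). With the mean of all its probe sets the change was -0.14 and did not pass (adjusted p = 0.0791). That mean takes in probe sets without a signal over 50 in any array, which were at 0.0081 and 0.14. Those of adequate signal fell by 0.33, 0.29 and 0.21 (limma, adjusted p up to 0.0475 over all single-gene probe sets). By the last ones HPB-ALL was above 0, at 0.11 and 0.18. EIF4G1, the scaffold between the cap and the ribosome, was lower in 6 of 7 lines at -0.23 ± 0.076 and lay just short of the threshold (adjusted p = 0.0506). EIF4B, a cofactor of the eIF4A helicase, had the highest change of the group, 0.12 ± 0.056. Of the rest, EIF4A3 (-0.13 ± 0.058), EIF4H (-0.13 ± 0.055) and EIF4ENIF1 (-0.097 ± 0.062) were below 0 in at least 5 of 7 lines without passing. The paralogs EIF4E2 (-0.13 ± 0.075), EIF4E3 (-0.00084 ± 0.079), EIF4G2 (-0.021 ± 0.061) and EIF4A2 (-0.073 ± 0.062) did not pass. EIF4A2 had a signal over 50 in 0 of 14 arrays, so its value is near background, and EIF4A1 was not analysed.

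The paralog pairs of the cap complex were compared by exact sign-flip permutation tests over the 7 lines, and none passed after adjustment over the 7 pairs measured. EIF4E fell further than EIF4E2 by 0.21 ± 0.17 (SD) in 6 of 7 lines (exact p = 0.0469) and further than EIF4E3 by 0.33 ± 0.20 (SD) in 6 of 7 lines (exact p = 0.0313), both 0.109 when adjusted. EIF4G1 and EIF4G2 differed by -0.21 ± 0.33 (SD, exact p = 0.141). EIF5A and EIF5A2 differed by -0.071 ± 0.44 (SD, exact p = 0.672), and the elongation factors EEF1A1 and EEF1A2 by -0.053 ± 0.20 (SD, exact p = 0.516).

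EIF4EBP1 and EIF4EBP2 encode the repressors of eIF4E. EIF4EBP1 was among the members that differed most between lines, with a vehicle level of 10.32 in CCRF-CEM, 9.29 in HPB-ALL, 9.14 in ALL-SIL, 8.56 in Molt-4, 7.88 in Jurkat, 6.62 in P12-ICHIKAWA and 6.34 in TALL-1. The nearly alike lines were lowest. With AS605240 it changed by -0.80 in CCRF-CEM and -0.75 in P12-ICHIKAWA, by -0.26 in Jurkat and in TALL-1, by -0.23 in ALL-SIL and -0.041 in HPB-ALL, and by 0.084 in Molt-4. The mean of -0.32 ± 0.099 passed narrowly (limma, adjusted p = 0.0353), and without CCRF-CEM, Jurkat, P12-ICHIKAWA, ALL-SIL or TALL-1 it no longer did (adjusted p up to 0.105). EIF4EBP2 had vehicle levels of 8.79 to 9.61 and a mean change of -0.10 ± 0.075 (adjusted p = 0.424). It was at -0.43 and -0.39 in P12-ICHIKAWA and TALL-1 and between -0.070 and 0.10 in the other lines. The difference between the changes of the repressors was -0.22 ± 0.36 (SD, exact sign-flip p = 0.125).

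All 3 genes of the eIF5A and eIF6 group fell, against 7.03% of all genes and 13.6% of those of adequate signal. EIF5A, which carries hypusine and frees stalled ribosomes, fell by 0.39 ± 0.096 (limma, adjusted p = 0.0109), by 0.84 in ALL-SIL and 0.76 in P12-ICHIKAWA, by 0.33 to 0.42 in HPB-ALL, TALL-1 and CCRF-CEM and by 0.092 in Jurkat, with Molt-4 at 0.042. By its dimmest probe set, still of adequate signal, EIF5A was at -0.16 ± 0.11 and did not pass (limma, adjusted p = 0.388 over all single-gene probe sets). EIF5A2, its tissue-restricted paralog, fell by 0.32 ± 0.080 in 6 of 7 lines (adjusted p = 0.0119), the exception being HPB-ALL at 0.15. EIF6, which keeps the ribosomal subunits apart, fell by 0.22 ± 0.065 in 6 of 7 lines (adjusted p = 0.0285), with Molt-4 at 0.077, and did not pass without HPB-ALL, Jurkat, P12-ICHIKAWA, ALL-SIL or TALL-1 (adjusted p up to 0.0839). The 2 factors outside the canonical pathway, EIF2A (0.16 ± 0.058) and EIF2D (0.12 ± 0.057), were above 0 in 7 of 7 lines and did not pass (adjusted p = 0.0662 and 0.189).

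No elongation factor gene passed in either direction, where 13.6% of all genes of adequate signal fell and 20.3% rose. The medians of the 4 genes lay above 0 in 7 of 7 lines, between 0.0025 in Jurkat and 0.16 in Molt-4. EEF2, the translocase, had vehicle levels of 12.04 to 12.73 (median 12.20) and AS605240 levels of 12.26 to 12.73 (median 12.45). Its mean change was 0.18 ± 0.064 (limma, adjusted p = 0.0614), from -0.0039 in CCRF-CEM to 0.40 in Molt-4. EEF1A1, which delivers aminoacyl-tRNA, changed by 0.0049 to 0.077 over the 7 lines (mean 0.044 ± 0.052, 95% confidence interval -0.067 to 0.16). Its brightest probe set is of the type that the array maker marks as open to related sequences. EEF1A2, the dim paralog, was at 0.097 ± 0.071, and EEF1D, a subunit of the exchange factor of eEF1A, at 0.12 ± 0.059. The 5 enzymes that modify elongation factors did not pass either, from EEF1AKMT1 at -0.13 ± 0.069 to EEF1AKMT2 at 0.099 ± 0.067, both lysine methyltransferases of eEF1A, with the eEF2 kinase gene EEF2K at 0.012 ± 0.068.

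The size of the decrease varied between lines. Over the 14 genes that fell, the median change was -0.23 in HPB-ALL, -0.26 in CCRF-CEM, -0.29 in Jurkat, -0.37 in TALL-1, -0.40 in ALL-SIL, -0.42 in P12-ICHIKAWA and -0.48 in Molt-4, values that were themselves used to call these genes. CCRF-CEM had the smallest absolute change of any line for 7 of the 14 genes and HPB-ALL for 4. Molt-4 had the lowest value for 5, among them EIF5B, EIF1AX and EIF3J, yet it was the line in which EIF4EBP1, EIF5A and EIF6 were above 0. Molt-4 was also the line with the largest shift of the poly(A) spike-ins, as given above, and their part in its values was not tested.

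The lines themselves were compared over both treatments by a moderated F test of the line terms, which 49 of 55 members passed (89.1%, against 66.9% of all genes), or 45 of 51 brighter members, against 93% of such genes. The differences were mostly small. The median range between the lowest and the highest line in vehicle was 0.74 for the members and 0.73 for all genes, but 0.72 against 1.03 among the brighter genes. A range over 1 was found for 10 members (18.2%, against 34.6% of all genes). By the brightest probe sets, EIF5A (5.33), EIF4EBP1 (3.97) and EIF4E3 (2.13) had the only ranges over 2. Dimmer probe sets of other members also exceeded it, such as one of EIF2S3 (3.53) with a signal over 50 in all 14 arrays.

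EIF5A levels in vehicle were 12.71 in Jurkat, 12.47 in CCRF-CEM, 11.11 in Molt-4, 9.49 in P12-ICHIKAWA, 9.40 in both HPB-ALL and TALL-1 and 7.38 in ALL-SIL, a span of 40.3-fold (limma F test, adjusted p = 1.87e-11). The 3 EIF5A probe sets gave ranges of 5.33, 4.90 and 4.89, with Jurkat highest and ALL-SIL lowest in each. P12-ICHIKAWA, HPB-ALL and TALL-1 lay closer to each other than the arrays of each did with and without AS605240, and Jurkat and CCRF-CEM differed by less than the 0.42 by which CCRF-CEM fell, so neither set of neighbours has a settled order. For EIF4E3, an atypical cap-binding paralog, ALL-SIL stood highest at 7.25 and the other 6 lines lay between 5.12 and 6.11. At the other extreme, EIF4H, a cofactor of the eIF4A helicase, spanned 0.34, from 10.70 to 11.04, and EEF1A1 also spanned 0.34, from 12.80 in Molt-4 to 13.14 in TALL-1. Neither passed the F test (adjusted p = 0.231 and 0.0975). The evenness of EEF1A1 holds for its brightest probe set. Its dimmest, with a signal over 50 in all 14 arrays, spanned 3.25 in vehicle.

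**Figure D4:**
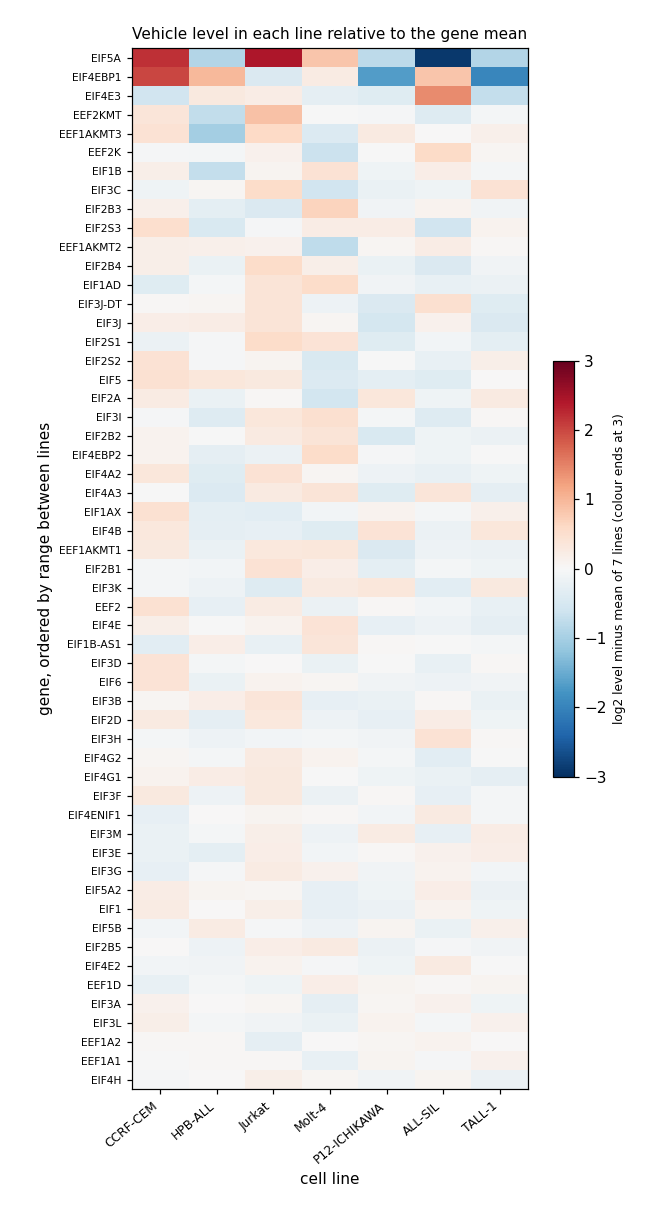
Vehicle level of each of the 55 genes (rows, ordered by the range between lines) in each of the 7 lines (columns), as the log2 level minus the mean of the 7 lines, with red above and blue below that mean. EIF5A and EIF4EBP1 at the top hold the darkest cells, and most rows below them are pale.

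Annotated starts were then read from RefSeq (GRCh38.p14). Windows from 250 bases before to 50 bases after a start were read for 41 of the 53 coding members. The chromosome that holds EIF4EBP1, EIF3E, EIF3H and EEF1D was left out of this search, so no start was read for these genes. A start was counted as a pyrimidine start when its first base was C and at least the next 4 bases were C or T. This held for 11 of 41 members (26.8%), against 6.24% of the 15843 coding genes read. The pattern was noticed after the changes were known and is given as a description. The first 20 bases of 4 of the 11 genes and of 3 genes that fell are shown on the strand of the gene, 5′ to 3′, with the leading pyrimidine run in capitals. They are EEF1A1 (chr6:73521013-73521032, minus strand), EEF2 (chr19:3985444-3985463, minus), EIF3F (chr11:7987337-7987356, plus), EIF3D (chr22:36529147-36529166, minus), EIF2S1 (chr14:67360328-67360347, plus), EIF2B3 (chr1:44986576-44986595, minus) and EIF4E (chr4:98929114-98929133, minus).
EEF1A1: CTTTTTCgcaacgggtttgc
EEF2: CTCTTCCgccgtcgtcgccg
EIF3F: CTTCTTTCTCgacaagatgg
EIF3D: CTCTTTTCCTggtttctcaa
EIF2S1: atgcgcggtggagtgagcga
EIF2B3: agaggcggcgtggagatcgc
EIF4E: gtgcgatcagatcgatctaa

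By the brightest probe sets, none of the 11 members with a pyrimidine start passed in either direction, and 9 of 11 had a mean change above 0 (median 0.087, from -0.086 in EIF3M to 0.18 in EEF2). Dimmer probe sets of EIF3F (0.70) and EEF1A1 (0.25) rose and passed, as given above, and none of the 11 had one that passed lower. Besides the 4 shown above they were EIF2A, EIF2D, EIF2S3, EIF3K, EIF3M, EIF4A2 and EIF4B. Of the other 30 members with a start read, 13 fell and 2 rose, with a median of -0.14. Within eIF2, EIF2S1 has no such start and EIF2S3 has one. Among the other coding genes of adequate signal, 7.4% of 569 with a pyrimidine start fell and 28.3% rose, against 14.6% and 19.7% of 6818 without it.

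**Figure D5:**
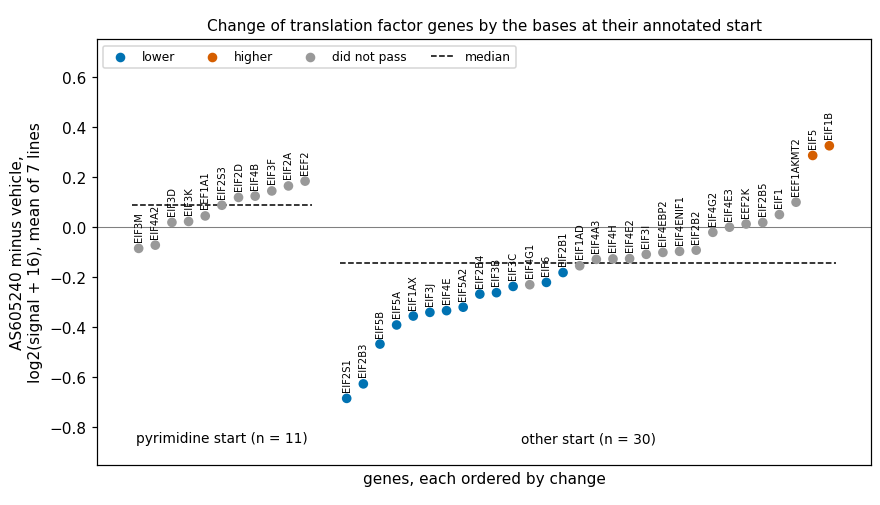
Mean log2 change over the 7 lines (AS605240 minus vehicle, log2(signal + 16)) of the 41 coding members whose annotated start was read, split by whether the start is a pyrimidine run, each part ordered by change, with a dashed line at its median and colour for genes with an adjusted p under 0.05. Each gene is read by its brightest probe set. The 11 genes at the left lie between -0.086 and 0.18 with none coloured, and all called genes are at the right.

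The E-box CACGTG, a motif that Myc and related factors bind, reads the same on both strands and was searched in the same windows. It was in 11 of 41 members (26.8%), against 10.9% of the 15843 coding genes read. Of these 11, EIF4E, EIF2B3 and EIF5A2 fell, EIF1B rose and 7 did not pass (EIF3F, EIF3K, EIF4A3, EIF4B, EIF4G1, EIF4H and EEF2K), with a median of -0.13, against -0.095 for the 30 members without it. Of those 30, 10 fell and 1 rose, so a decrease was not more frequent in the members with the motif. The matches of the 4 called genes are shown on the strand of the gene with 10 bases on each side and the motif in capitals. They lie at chr4:98929343-98929368 and chr4:98929190-98929215 for EIF4E (minus strand), chr1:44986759-44986784 for EIF2B3 (minus), chr3:170908809-170908834 and chr3:170908784-170908809 for EIF5A2 (minus) and chr3:40309643-40309668 for EIF1B (plus). EIF4E and EIF5A2 each hold 2 matches. Among other coding genes of adequate signal, 20.1% of those with the motif fell and 19.7% rose, against 13.1% and 20.5% of those without it.
EIF4E, first: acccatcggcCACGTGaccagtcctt
EIF4E, second: acatatccgtCACGTGgccagaagct
EIF2B3: cagagggacaCACGTGtcgaatgctc
EIF5A2, first: taatccgcagCACGTGgggttgccag
EIF5A2, second: gggcgctcttCACGTGactgggcgga
EIF1B: gcgggacggtCACGTGggaggggccg

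Genes that act beside these factors were described from 5 fixed lists, read against the same 7.03% of genes lower and 11.8% higher. Of the 8 termination and recycling genes 5 fell and none rose, with a median of -0.32. They were ABCE1, which splits the ribosome (-0.63 ± 0.077), the release factors GSPT1 (-0.54 ± 0.083) and ETF1 (-0.41 ± 0.066), MCTS1 (-0.37 ± 0.075) and the ribosome rescue factor PELO (-0.26 ± 0.062), each lower in 7 of 7 lines (limma, adjusted p from 1.06e-04 to 0.00849). Of 8 genes measured for the hypusine of eIF5A and the diphthamide of eEF2, the diphthamide genes DPH6 (-0.68 ± 0.082), DPH3 (-0.67 ± 0.095) and DPH2 (-0.45 ± 0.075) fell in 7 of 7 lines and 5 did not pass.

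Of the 6 eIF2 kinase and phosphatase genes 2 fell and 2 rose. PPP1R15A, the stress-induced subunit that directs phosphatase to eIF2 alpha, rose by 0.72 ± 0.10 and EIF2AK3, the kinase of the endoplasmic reticulum, by 0.40 ± 0.057, both in 7 of 7 lines, while EIF2AK2 (-0.22 ± 0.065), which senses double-stranded RNA, and EIF2AK4 (-0.21 ± 0.065), which senses uncharged tRNA, fell in 6 of 7. Among 10 cap-complex regulators and poly(A)-binding proteins, LARP1, a binder of mRNAs with pyrimidine starts, fell by 0.21 ± 0.060, and PAIP2 (0.33 ± 0.068), PAIP2B (0.48 ± 0.089) and PDCD4 (0.41 ± 0.098), the last an inhibitor of eIF4A, rose. PAIP2B and PDCD4 had a signal over 50 in 0 of 14 arrays, so their values are near background. Of 9 mitochondrial translation factors, GFM1 (-0.30 ± 0.058) fell, GUF1 (0.21 ± 0.065) and MTRF1 (0.22 ± 0.067) rose, and the median was 0.062.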

How the data were processed

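The data were 14 HG-U133 Plus 2.0 arrays (54675 probe sets), 1 per line and treatment. The authors deposited linear signal intensities, summarized per probe set with iterPLIER; the submitters' processing notes name PLIER and Affymetrix Expression Console 1.3.1.187. How arrays were normalized before that step is not stated in the text and labels read here. An offset of 16 was added here and log2 taken. Each gene was read by the brightest of the 41091 probe sets that name a single gene; symbols of 41037 were updated through the gene ID in a RefSeq table, and 1801 probe sets that name several genes were not used.

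AS605240 and vehicle were compared in R 4.3.3 with limma 3.58.1 (lmFit, eBayes), blocking on the cell line as in the study's paired analysis, over all 19775 genes with Benjamini-Hochberg adjustment; genes passed at an adjusted p under 0.05. Pairing comes from the labelled cell line. Paralogs were compared by two-sided exact sign-flip tests over 128 sign patterns. Complexes and lists were described by counts and medians without a test. The model was tested on simulated data. The number of arrays limits the precision, and the p-values measure the spread between lines. Named were the members that passed, the EIF4EBP genes and paralog pairs, the lowest and highest change in each complex, the extreme ranges between lines and the list genes that passed; other genes were named after their values were seen. The members, lists and tests were chosen with earlier results of these data known. Alternatives were other offsets, quantile normalization, centring, a filter on dim probe sets, the mean of all probe sets, a variance trend, no block, each line left out and the nearly alike lines averaged. The second brightest probe set and the fit over probe sets were added after the data were seen.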

Additional observations from a re-analysis of the deposited data

Results flagged for a closer look

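In 25 named genes the 7 values of each group, and the 7 changes, were searched for a single line far from the others, 75 sets of values in all, and 5 were found. Chance alone gives about 1 such set in 20. EEF1A1 in Molt-4 was at 12.80 with vehicle, below the 13.00 to 13.14 of the other 6 lines, and at 12.84 with AS605240, below 13.07 to 13.18. EEF1A2 in Jurkat was at 5.91 with vehicle, below 6.18 to 6.28. The change of EIF1 in CCRF-CEM was -0.42, against 0.039 to 0.19 in the others. EIF1B in Molt-4 was at 10.99 with AS605240, above 10.08 to 10.45.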

How the results depend on the processing

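Over 17 alternative settings 13 of the 17 called members kept their call in at least 15. Without the replicate block no member passed in either direction, since the spread in level between lines then enters the error. The counts of 14 lower and 3 higher stayed between 10 and 15 and between 3 and 4 when each line was left out, and the count past 1.5-fold lower between 1 and 2. The number higher was 8 with an offset of 64, 8 also when probe sets were averaged, 5 with quantile normalization, 7 with a variance trend and 6 among genes of adequate signal alone. With the offset of 64, 12.1% of all genes rose, so the lower share of members that rose did not hold at that setting. The number lower by over 1.5-fold was 1 with an offset of 64, with the mean of probe sets and with the second brightest probe set, and that last setting called 1 member higher by over 1.5-fold. The second brightest probe set turned the median of eIF2 to 0.087 and of eIF3 to -0.079, and gave -0.16 for the start-site group. EIF4E minus EIF4E2 came to 0.0030 with the mean of all probe sets, dim ones included, and EIF5A minus EIF5A2 to 0.020 with quantile normalization. With lines left out, EIF5A minus EIF5A2 ran from -0.18 to 0.028 (above 0 without ALL-SIL), EEF1A1 minus EEF1A2 from -0.099 to 0.00049 (above 0 without CCRF-CEM). EIF4EBP1 and EIF6 each lost their call in 9 settings, EIF2B1 in 5, EIF3C in 3 and EIF4E, EIF2S1, EIF5A and EIF1B in 2, the last 4 outside the fit without the block by averaging probe sets (EIF4E), by the second probe set (EIF2S1 and EIF1B) or by an offset of 4 (EIF5A). The cause of these shifts was not tested.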

Other observations

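The genes on either side of EIF5A on chromosome 17 were read in vehicle as a description. ALL-SIL was the lowest line for GPS2 (7.04, others 7.33 to 8.80), NEURL4 (4.83, others 5.05 to 6.34) and YBX2 (others 4.30 to 7.88) as well as for EIF5A. The order of the lines was not shared throughout. ACAP1 was lowest in Molt-4 (7.83). Jurkat, highest for EIF5A, was highest for GPS2 and ACAP1 but lowest for SLC2A4 (6.28), and YBX2 was highest in P12-ICHIKAWA and NEURL4 in Molt-4. SLC2A4 ranged by 0.53 between lines and CLDN7, which was dim, by 0.26.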
